A study of Mus musculus with 13 samples.

Results

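The small subunit of the cytosolic ribosome, the particle that reads messenger RNA during translation, holds 1 ribosomal RNA and about as many proteins as were followed here. The genes of these proteins were taken by name, as mouse symbols that begin with Rps and a number, with Rpsa and Fau added. The Rps6k kinases and symbols marked -ps for pseudogenes were left out. All 33 names taken reached 1 TPM in 3 libraries or more, so 33 genes of the 11876 tested were followed. They include Rps4l, which RefSeq lists as a transcribed pseudogene. TPM is a level as a share of all transcripts, corrected for length. Symbols that do not follow this pattern, such as Rps3a1 and Rps27rt, were not among the 33.

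Polyadenylated RNA of whole quadriceps muscle of C57BL/6 mice was sequenced in 13 libraries and 2 batches. In batch 2, 3 libraries came from aged mice treated with SW033291 (replicates 1, 4 and 6) and 3 from aged mice on vehicle (replicates 2, 3 and 8). In batch 1, 3 came from aged mice on vehicle (replicates 2, 3 and 4) and 4 from young mice on vehicle (replicates 1, 3, 4 and 5). SW033291 blocks 15-PGDH, which breaks down prostaglandins. Aged mice were labelled as over 24 months old and young mice as 3 months old, and all were injected intraperitoneally each day for 4 weeks, with SW033291 at 5 mg/kg or with a vehicle of ethanol, Cremophor EL and dextrose in water. No young mice were given SW033291 in these libraries. The labels name no separate animals behind the replicates, so the p-values measure the spread between these libraries.

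Ribosomal proteins of the small subunit bind the small subunit rRNA in a set order while the subunit is built in the nucleolus, and the finished subunit joins initiation factors, a messenger and the initiator tRNA. In mammals most of their messengers carry a terminal oligopyrimidine tract, a short run of C and T at the very start of the transcript. Through this run the kinase complex mTORC1 and the binding protein LARP1 set how well these messengers are translated and how long they are kept. Skeletal muscle fibres, which hold most of the RNA of a muscle, build ribosomes when they grow.

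The starts of some of these genes are shown first, because the tract is the sequence feature by which the family is known. Each window holds 30 bases before the annotated start and 20 from the start on, read 5′ to 3′ on the gene's own strand, and was taken from RefSeq promoters of the build GRCm38.p6. The coordinates are of that build and were not mixed with values aligned to mm9. Capitals mark a run of at least 5 C or T that reaches within 5 bases of the annotated start. Rps6 and Fau show long runs, Rps16 and Rps28 show none, Rps2 and Rps9 complete the genes that differed between batches, and Rps27 stands beside its near-identical copy Rps27rt.
Rps6 (chr4:86857348-86857397, minus strand): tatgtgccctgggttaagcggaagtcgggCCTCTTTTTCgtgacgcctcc
Fau (chr19:6057917-6057966, plus strand): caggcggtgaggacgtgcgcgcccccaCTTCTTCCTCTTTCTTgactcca
Rps9 (chr7:3704011-3704060, plus strand): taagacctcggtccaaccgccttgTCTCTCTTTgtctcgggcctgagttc
Rps2 (chr17:24720033-24720082, plus strand): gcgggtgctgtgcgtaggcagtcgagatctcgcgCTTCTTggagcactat
Rps16 (chr7:28350659-28350708, plus strand): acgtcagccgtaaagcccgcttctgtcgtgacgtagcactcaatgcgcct
Rps28 (chr17:33824543-33824592, minus strand): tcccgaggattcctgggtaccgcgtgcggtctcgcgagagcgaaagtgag
Rps27 (chr3:90213629-90213678, minus strand): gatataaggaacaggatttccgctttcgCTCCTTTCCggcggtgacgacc
Rps27rt (chr9:114982720-114982769, minus strand): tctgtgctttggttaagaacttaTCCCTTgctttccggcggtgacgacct

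Of the 33 genes, 24 had an entry among these promoters. A run of at least 5 pyrimidines at the start was present in 14 of the 24 (58.3%), against 31.5% of all 27025 promoters. The letters CCGGAA, the core that ETS factors bind, were searched on both strands of the 300 bases that the table holds per gene, 250 before the start and 50 after it, and were present in 12 of the 24 (50%), against 15.2% of all promoters. These are matches of letters at annotated starts, which can lie some bases off the true start.

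The small subunit genes were among the abundant transcripts of quadriceps. The sum of the 33 was 1.91% ± 0.113 of all TPM in aged SW033291 muscle, 1.85% ± 0.129 in aged vehicle muscle of batch 2, 2.30% ± 0.277 in aged vehicle muscle of batch 1 (SD, n = 3 each) and 1.85% ± 0.0512 in young vehicle muscle (SD, n = 4). As mean TPM over the 13 libraries, the middle member stood at 568, and 30 members lay above 100 TPM within a 5.13-fold range. The 10 highest held 47.8% of the sum. Fibre markers showed the tissue to be muscle, with Ckm, the muscle creatine kinase, at 29159 to 41016 TPM.

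Among the highest members were Rps20 at 1263 TPM, Rps2 at 1126, Rps14 at 1086 and Rps15 at 885. Rps20 and Rps15 are proteins of the head of the subunit, Rps2 lies where the messenger enters, and Rps14 belongs to the platform. The 5 lowest were Rps4l at 3.43 TPM, Rps27 at 32.4, Rps15a at 44.5, Rps3 at 246 and Rps19 at 308. RefSeq lists Rps4l, a copy of Rps4x, as a transcribed pseudogene, and the 32 others as protein coding. The level of Rps15a on the TPM scale depends on the length assigned to it. In the authors' deposited table its mean normalised count was 10.2 per TPM, against 3.72 for Rps3, 2.73 for Rpsa and 0.817 for the middle member, and GENCODE M21 lists coding transcripts of Rps15a of 250 to 5179 bases. Ribosomal protein genes have many processed pseudogenes of nearly the same sequence, and how reads were split between a gene and such copies was not tested here.

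**Figure D1:**
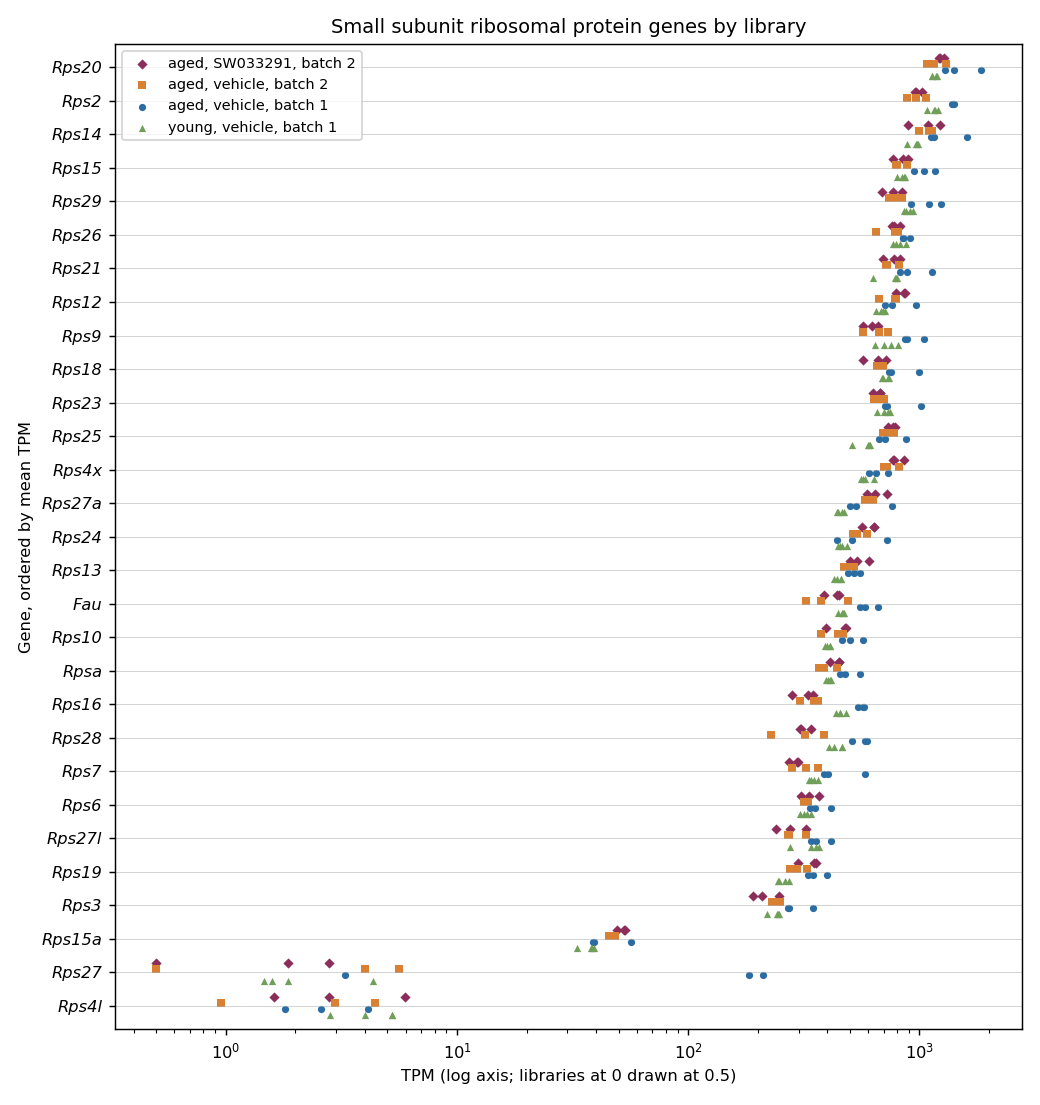
Level of 29 small subunit genes in each of the 13 libraries, in TPM on a log axis, with genes ordered by their mean and groups told apart by colour and shape. The genes from Rps20 to Rps3 lie within a 5.13-fold range of mean TPM, Rps15a, Rps27 and Rps4l lie below 100 TPM, and Rps27 stands at 184 and 211 TPM in 2 aged vehicle libraries of batch 1 only.

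Rps27 and Rps4l apart, each gene varied little between libraries. The highest library of a gene was at most 2.59 times its lowest (Rps28), with 1.71 in the middle of the 31 genes. The library that stood apart was replicate 4 of aged vehicle, batch 1, which was the highest of the 13 for 25 of the 33 genes and held 2.61% of its TPM in the family. The same library held the highest level of neutrophil and granulocyte precursor transcripts. The 11 markers, all above 0 there, summed to 1768 TPM in it, against 0.94 and 5.53 TPM in the other aged libraries of batch 1 and 0.88 to 2.92 TPM in young libraries, where S100a9, Ngp, Camp, Mpo and Elane were at 0. In batch 2 the sum was 6.55 to 234 TPM in SW033291 libraries and 7.81 to 781 TPM in vehicle libraries. In replicate 4 the 7 fibre markers summed to 137613 TPM, against 164102 and 168463 TPM in the other aged libraries of batch 1 and 174599 to 185731 TPM in young libraries. The markers did not move together. Against the other aged libraries of batch 1, Acta1, Ckm, Myh4 and Mb were lower, and Tnnt3, Pvalb and Myh7 were higher. Acta1 had 24221 TPM in replicate 4, against 46887 and 50730 TPM. Erythroid markers summed to 1153 TPM in it, against 58.4 to 880 TPM in the other 12 libraries, markers of dividing cells to 11.08 TPM, against 0.29 to 4.98 TPM, and lymphocyte markers to 4.96 TPM, against 0 to 4.86 TPM. All 5 erythroid and all 5 dividing-cell markers were above 0 there, and 5 of 6 lymphocyte markers, Cd3e being at 0. Many of the counts, medians and named differences with age and between batches, but not all, are also given without that library. The part of these cells in them was not tested. In whole muscle, fewer cells of a type and less RNA per cell cannot be told apart.

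**Figure D2:**
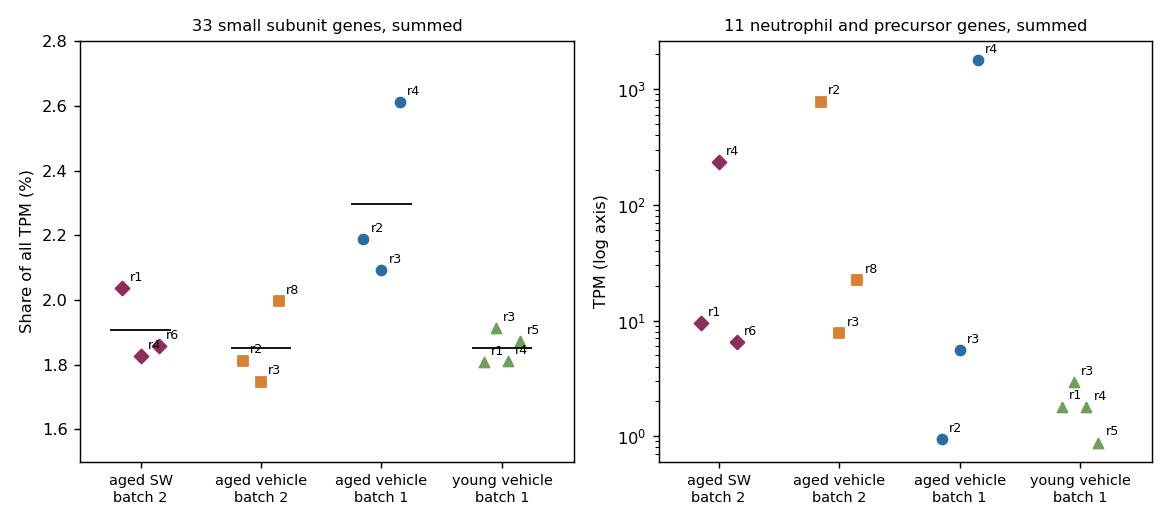
Left, summed level of the 33 small subunit genes in each library as a percentage of all TPM, with a line at the group mean. Right, summed TPM of 11 neutrophil and precursor markers in the same libraries on a log axis. Replicate 4 of aged vehicle, batch 1, is the highest of 13 in both, at 2.61% and 1768 TPM, while replicate 2 of aged vehicle, batch 2, at 781 TPM of markers, holds 1.81% of its TPM in the family.

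Aged and young vehicle muscle of batch 1 were compared to ask how these genes differ with age. With limma on log2(TPM + 1), 0 of the 33 genes passed an adjusted p of 0.05, against 0.455% of all genes tested. The log2 difference was positive for 32 of the 33, and for 61.2% of all genes. Its median was 0.30 over the family and 0.06 over all genes. At an unadjusted p under 0.05, 23 were higher in aged muscle and 0 lower, against 7.2% of all genes higher. For 21 genes every aged library lay above every young library, against 8.85% of all genes. These counts describe genes of 1 family in the same libraries and are not independent of each other.

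Rps19, the gene most often mutated in Diamond-Blackfan anaemia, a failure of red cell formation in humans, came nearest to the threshold. Its level was 347, 329 and 398 TPM in aged libraries, against 272, 262, 244 and 248 TPM in young libraries, with no overlap. The log2 difference was 0.48 (SE 0.10) with a limma adjusted p of 0.054, and without replicate 4 it was 0.40 with a limma adjusted p of 0.084.

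Rps14 is the small subunit gene whose loss of 1 copy causes the anaemia of a human myelodysplastic syndrome. It had 1156, 1118 and 1611 TPM in aged libraries and 977, 961, 885 and 989 TPM in young libraries, a log2 difference of 0.42 (SE 0.13). Replicate 4 lay far above the other aged libraries, and the groups did not overlap. Without it the difference was 0.26. The 11 family members linked to Diamond-Blackfan anaemia in humans, among them Rps19, Rps24 and Rps26, had log2 differences of 0.09 to 4.13 with a median of 0.35, and 0 of 11 passed the threshold. Without replicate 4 their median was 0.22, and 1 of 11, Rps27, passed as higher, where 67 of all 11876 genes did. The 4.13 is also that of Rps27, whose value alone is uncertain because its reads can be assigned to a near-identical copy, Rps27rt. In the fit of all 13 libraries, 2 of 6 named targets of p53, the factor that defects of ribosome building activate, were higher in aged muscle, against 0.37% of all genes. These targets were listed with earlier results of these data known, so the count cannot serve as a test against that share. A link of these targets to ribosome building was not tested. The cell cycle inhibitor Cdkn1a averaged 48.2 ± 17.4 TPM in aged and 13.04 ± 3.20 TPM in young libraries, and the receptor Eda2r 19.7 ± 11.2 TPM in aged and 4.39 ± 0.591 TPM in young libraries (SD, n = 3 aged and 4 young; limma adjusted p = 0.0089 and 0.0079). Both passed without replicate 4 as well, at log2 differences of 2.04 and 1.41. The haemoglobin gene Hba-a1, an erythroid marker, was higher in aged muscle too, with 364 ± 464 TPM in aged and 4.91 ± 9.82 TPM in young libraries (SD, n = 3 aged and 4 young; limma adjusted p = 0.018, and 0.046 without replicate 4). Of the 3 erythroid markers tested, 2 had a positive age difference. The haemoglobin gene Hbb-bs went the other way at -1.27 and did not pass. Without replicate 4, 1 of the 3 was positive and 2 were negative. Globin genes have near-identical copies, so the value of each alone is uncertain.

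The fusion genes stood within the same range. Rps27a encodes ubiquitin joined to a small subunit protein and had a log2 difference of 0.37 (SE 0.13), and Fau, which joins a ubiquitin-like protein to another, had 0.37 (SE 0.12). Rps6, the substrate of the S6 kinases that mTORC1 switches on, had 355, 335 and 414 TPM in aged libraries and 304.5, 326, 339 and 316 TPM in young libraries. These groups overlapped, and its log2 difference was 0.19 (SE 0.09). Rpsa, the laminin receptor precursor, had 0.28 (SE 0.09), Rps3, a protein of the messenger entry that also takes part in DNA repair, had 0.31 (SE 0.11), and Rps25, used in initiation at internal entry sites, had 0.36 (SE 0.10). Without replicate 4 these stood at 0.18 for Rps27a, 0.29 for Fau, 0.10 for Rps6, 0.20 for Rpsa, 0.19 for Rps3 and 0.25 for Rps25.

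Among the smallest differences were those of Rps26 at 0.09 (SE 0.09), Rps27l at 0.15 (SE 0.13) and Rps4x at 0.17 (SE 0.09). Rps26, a protein of the messenger exit, had 908, 845 and 848 TPM in aged libraries and 788, 876, 766 and 825 TPM in young libraries. Its groups overlapped. Rps4l alone was negative at -0.49 (SE 0.38). Without replicate 4 the values were 0.11 for Rps26, 0.06 for Rps27l, 0.10 for Rps4x and -0.46 for Rps4l. Under median-of-ratios scaling 31 of the 33 were positive, and under quantile normalization and after removal of the 20 most abundant genes 30, with Rps26 then negative.

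Without replicate 4, the aged library rich in neutrophil transcripts, the median log2 difference of the 33 was 0.20, 32 were still positive, and Rps27 alone passed the threshold. It was higher, as were 67 of all 11876 genes. The aged vehicle libraries of batch 2 set against the same young libraries gave 15 positive and 18 negative differences with a median of -0.0048 (all genes 67.7% positive, median 0.16), but those groups differ in batch as well as age, which cannot be told apart. There 5 of 33 passed, against 14.1% of all genes. Rps27a, Rps4x and Rps25 were higher in the aged libraries (all genes, 12.2% higher), and Rps16 and Rps28 were lower (all genes, 1.94% lower). The young libraries are shared by both contrasts.

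**Figure D3:**
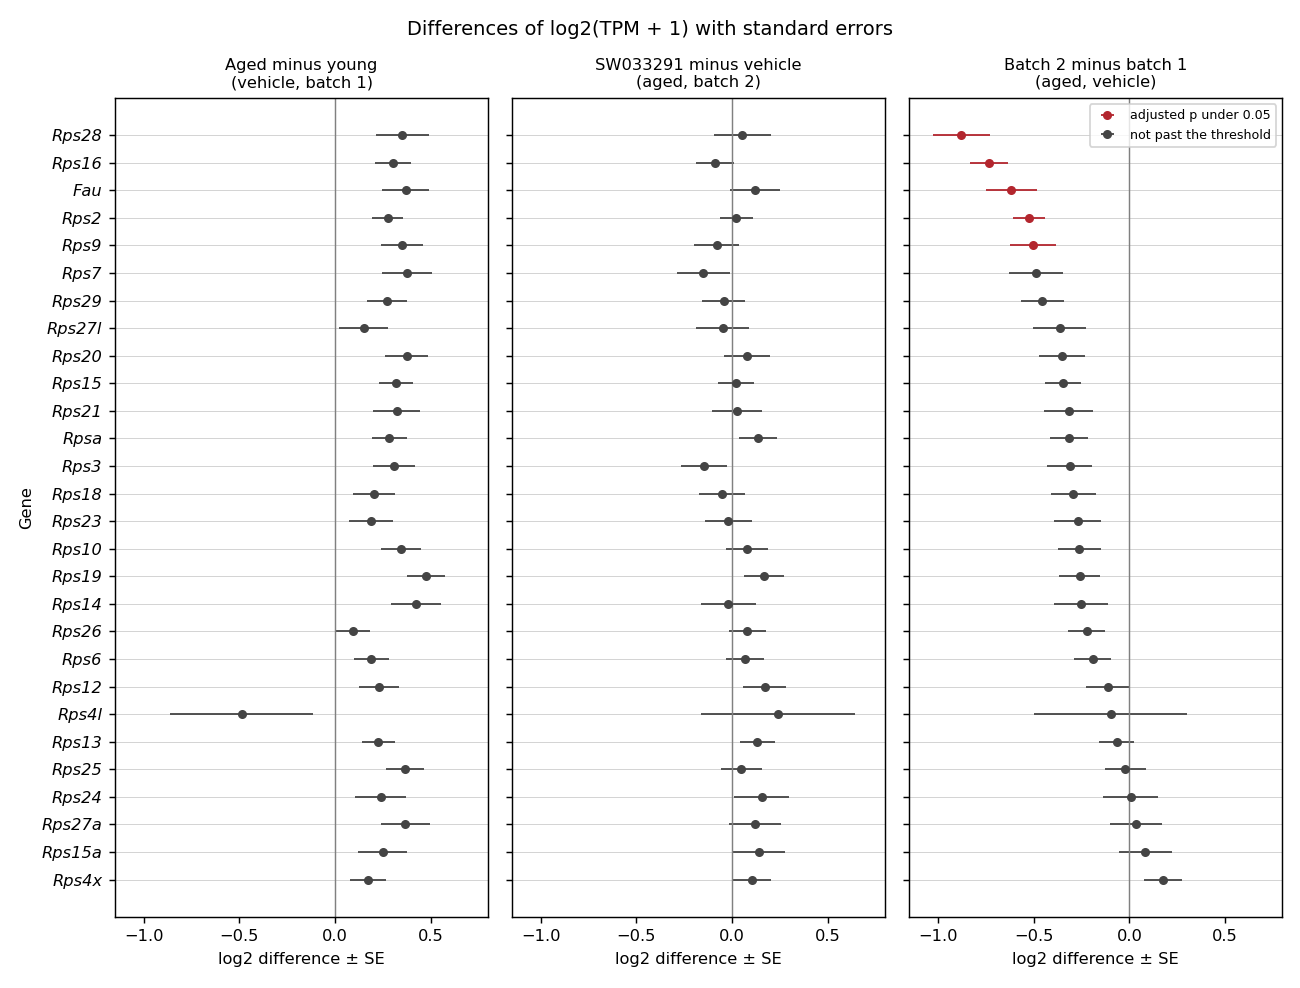
Log2 differences of 28 small subunit genes with their standard errors on the log2(TPM + 1) scale, for aged minus young vehicle muscle of batch 1, SW033291 minus vehicle in aged muscle of batch 2, and batch 2 minus batch 1 in aged vehicle muscle. Rps27 lies outside the range and is not drawn. Apart from Rps4l, age differences lie near their median of 0.30 and SW033291 differences near 0.05, while batch differences run from -0.88 (Rps28) to 0.18 (Rps4x), with 5 genes past the threshold in red.

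The comparison of SW033291 with vehicle in aged muscle of batch 2 asks whether inhibition of 15-PGDH changes these genes. With limma, 0 of 33 passed the adjusted threshold (all genes, 0%), and 0 of 33 had an unadjusted p under 0.05, where 173 of all genes (1.46%) were higher and 1048 (8.82%) lower. The log2 difference was positive for 23 of the 33 and for 28.9% of all genes. Its median was 0.05 over the family and -0.13 over all genes, a distance of 0.18. Median-of-ratios scaling brought the median of all genes to -0.004 and that of the family to 0.20, with 31 positive. Under quantile normalization 18 were positive with a median of 0.03.

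The largest positive differences were those of Rps4l at 0.24 (SE 0.40), Rps12 at 0.17 (SE 0.11), Rps19 at 0.17 (SE 0.11), Rps24 at 0.15 (SE 0.14) and Rps15a at 0.14 (SE 0.14). Rps12 had 868, 853 and 788.2 TPM in SW033291 libraries and 667, 788.0 and 781 TPM in vehicle libraries. Rps15a had 53.5, 52.6 and 49.1 TPM in SW033291 libraries and 45.6, 46.9 and 48.25 TPM in vehicle libraries. These were the 2 members whose groups did not overlap, against 1.95% of all genes that did not overlap in the higher direction. Rps4l had 5.95, 2.8 and 1.62 TPM in SW033291 libraries and 0.95, 4.43 and 2.98 TPM in vehicle libraries, and its sign turned without replicate 1 of SW033291 or replicate 2 of vehicle.

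The most negative differences were those of Rps27 at -0.54 (SE 1.17), Rps7 at -0.15 (SE 0.14), Rps3 at -0.15 (SE 0.12), Rps16 at -0.09 (SE 0.10) and Rps9 at -0.08 (SE 0.12). Rps7, which takes part in small subunit assembly and binds the p53 regulator Mdm2, had 299.7, 273 and 295 TPM in SW033291 libraries and 324, 281 and 362 TPM in vehicle libraries, which overlapped. Rps3 had 246, 190.5 and 209 TPM in SW033291 libraries and 233, 229.8 and 248 TPM in vehicle libraries, which overlapped as well. Rps6, at 0.07 (SE 0.10), Rpsa, at 0.14 (SE 0.10), and Rps14, at -0.02 (SE 0.14), lay between these.

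In the authors' deposited table of SW033291 against vehicle, the log2 fold changes of 31 members with a mean level of at least 50 were all positive, with a median of 0.22. Of all 6371 genes at that level in the authors' deposited table, 47.8% were positive, with a median of -0.01. Unadjusted p-values under 0.05 stood in the authors' deposited table beside 5 members, Rps12, Rps13, Rps24, Rps27a and Rpsa (16.1% of the 31), and beside 5.79% of all genes at that level. The authors' deposited table of age lists 813 genes and none of the 33.

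The aged vehicle libraries of batch 2 and batch 1 had the same labelled age and treatment, so their comparison shows how far the genes differ between batches. With limma, 5 of the 33 passed the threshold, against 2.25% of all genes, and all 5 were lower in batch 2, against 0.53% of all genes lower. Over all genes tested 204 were higher and 63 lower, and under median-of-ratios scaling 46 higher and 98 lower. In all, 29 of the 33 differences were negative, while 64.2% of those of all genes were positive. The median was -0.27 over the family and 0.11 over all genes, a distance of -0.38, and under median-of-ratios scaling -0.41 and -0.01, a distance of -0.40. For 20 genes every library of batch 2 lay below every library of batch 1, against 4.64% of all genes.

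Rps16, whose tail reaches the transfer RNA in the peptidyl site, had 351, 304 and 363 TPM in batch 2 and 569, 544 and 577 TPM in batch 1. The groups stood far apart, with a log2 difference of -0.73 (SE 0.10) and a limma adjusted p of 0.0061. Rps28, a protein of the messenger exit, had 321, 229 and 385 TPM in batch 2 and 593, 509 and 584 TPM in batch 1. This was the widest difference of a called member, -0.88 (SE 0.15), with a limma adjusted p of 0.014.

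Rps2 had 968, 881 and 1063 TPM in batch 2 and 1376, 1406 and 1394 TPM in batch 1, a log2 difference of -0.52 (SE 0.09) with a limma adjusted p of 0.013. Fau had 376, 322 and 489 TPM in batch 2 and 579, 555 and 665 TPM in batch 1, a log2 difference of -0.62 (SE 0.13) with a limma adjusted p of 0.032. Rps9, which binds the rRNA early in assembly, had 666, 571 and 731 TPM in batch 2 and 881, 862 and 1043 TPM in batch 1, a log2 difference of -0.50 (SE 0.12) with a limma adjusted p of 0.045. In aged vehicle muscle none of these genes overlapped between the batches. Without replicate 4 of batch 1 all 5 still passed, at log2 differences of -0.72 for Rps16, -0.85 for Rps28, -0.52 for Rps2, -0.54 for Fau and -0.42 for Rps9. Of the fibre markers, the fast myosin Myh4 was higher in batch 2 at a log2 difference of 1.21 (SE 0.16) and the calcium buffer Pvalb lower at -0.58 (SE 0.11), with limma adjusted p of 0.0061 and 0.02. Without replicate 4 of batch 1 they stood at 1.08 and -0.52 and passed. Of the 3 erythroid markers tested, 2 had positive differences and did not pass, and 1, the haemoglobin gene Hbb-bs, was lower in batch 2. It was listed at 0 TPM in all 3 aged vehicle libraries of batch 2. In the aged vehicle libraries of batch 1 it averaged 95.8 ± 121 TPM (SD, n = 3; limma adjusted p = 0.045, and 0.047 without replicate 4). The SW033291 libraries, also of batch 2, had 52.2, 0 and 156 TPM of Hbb-bs. The part of fibre and erythroid markers in the batch differences was not tested. Among the starts printed above, those of Rps16 and Rps28 hold no pyrimidine run at the start and those of Rps2, Fau and Rps9 hold one.

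Among the small subunit genes, the differences between batches were spread more widely than those of the comparisons made within a batch. No such spread is given over all genes. More of all genes passed the threshold between batches too, at 267, against 54 with age within batch 1 and 0 with SW033291. Leaving out Rps27 and Rps4l, the SD of the log2 differences over 31 genes was 0.23 between batches and 0.22 for aged muscle of batch 2 against young muscle of batch 1, and it was 0.10 with age within batch 1 and 0.09 with SW033291 within batch 2. Rps4x, an X-linked gene, had 701, 722 and 819 TPM in batch 2 and 605, 647 and 733 TPM in batch 1, which overlapped, at 0.18 (SE 0.10). Rps15a stood at 0.08 (SE 0.14), Rps27a at 0.04 (SE 0.14) and Rps24 at 0.01 (SE 0.14), and these 3 turned negative under median-of-ratios scaling. Without replicate 4 of batch 1 the values were 0.25 for Rps4x, 0.26 for Rps15a, 0.23 for Rps27a and 0.21 for Rps24.

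The other groups gave the same order of batches for 3 of the 5 called genes, Rps16, Rps2 and Rps28, which had the lowest p of the batch contrast. In SW033291 libraries, all of batch 2, Rps16 had 346, 281 and 328 TPM, Rps28 had 339, 307 and 303 TPM, and Rps2 had 1023, 966 and 961 TPM. Young libraries of batch 1 had 453, 483, 436 and 454 TPM of Rps16, 408, 464, 426 and 462 TPM of Rps28, and 1162, 1205, 1079.6 and 1159 TPM of Rps2. For these 3 genes all 6 libraries of batch 2 lay below all 7 of batch 1. The aged vehicle libraries among them had also served to choose the genes, and the share of all genes in this order was not counted. The other 2 called genes overlapped. Fau had 489 TPM in a batch 2 library, against 443 TPM in the lowest young library, and Rps9 had up to 731 TPM in batch 2, against 645 TPM in the lowest young library. The count of 5 rested on the spread shared by all 13 libraries: 0 passed when only the 2 groups were fitted, 1 (Rps16) without replicate 2 of either group, 2 (Rps16 and Rps28) without replicate 3 of batch 2, and 8 without replicate 4 of batch 1. Those 8 were all lower in batch 2, where 231 of all 11876 genes were. With the replicate number as a block 1 passed, Rps28.

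**Figure D4:**
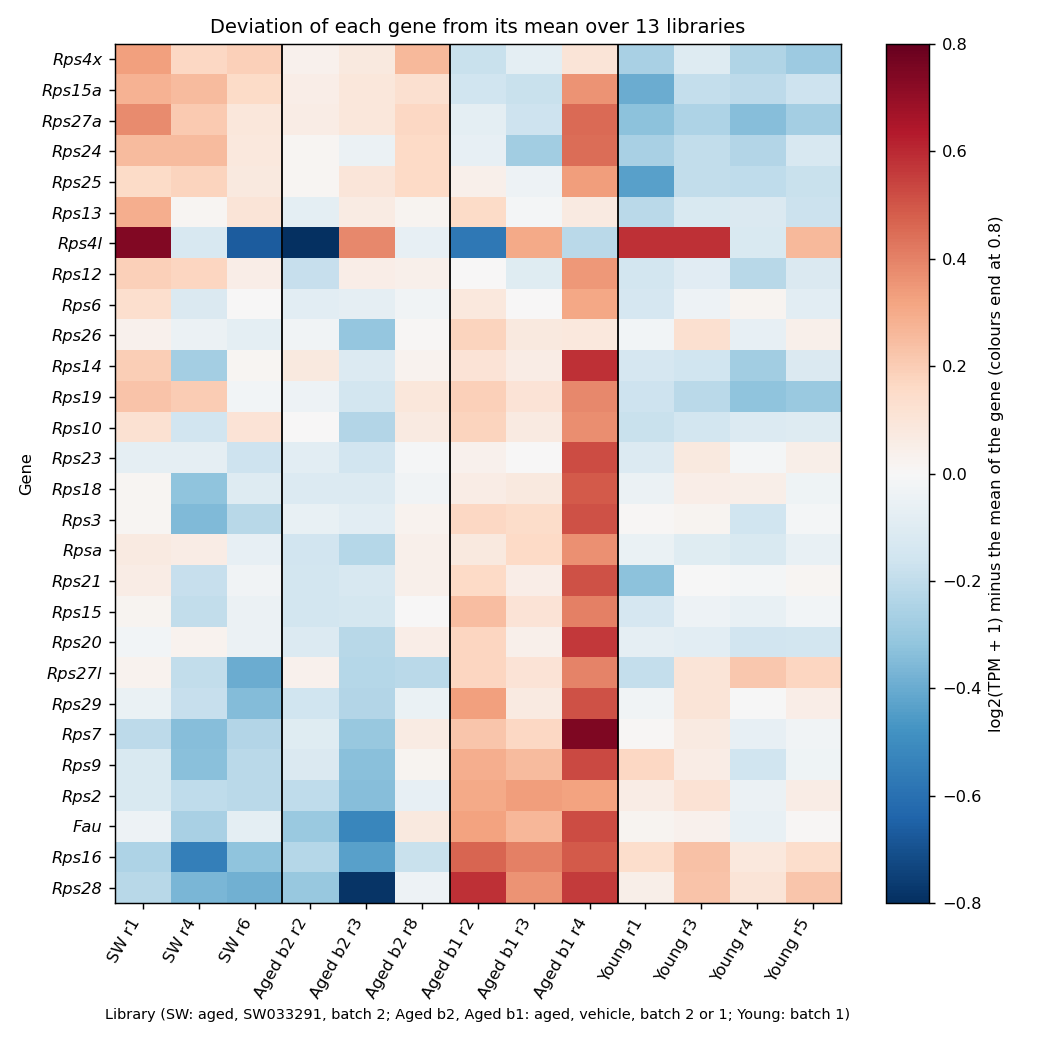
Deviation of 28 small subunit genes, each from its own mean over 13 libraries on the log2(TPM + 1) scale, red above and blue below, with libraries in columns by group and genes ordered by their batch difference, and Rps27 left out. Replicate 4 of aged vehicle, batch 1, is red for nearly all genes, and Rps16 and Rps28 at the bottom are blue in all 6 libraries of batch 2 and red in all 7 of batch 1.

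Rps27 encodes a zinc finger protein of the subunit, and its pattern was unlike that of the other members. It had 2.8, 1.86 and 0 TPM in SW033291 libraries, 0, 5.59 and 4.02 TPM in aged vehicle libraries of batch 2, 184, 211 and 3.27 TPM in aged vehicle libraries of batch 1, and 4.34, 1.85, 1.58 and 1.46 TPM in young libraries. Only replicates 2 and 3 of aged vehicle, batch 1, stood above 6 TPM. The aged minus young log2 difference of 4.13 (SE 1.09) had a limma adjusted p of 0.13. Replicate 4 lay within the range of the young libraries, and without it the difference was 5.98 with a limma adjusted p of 0.0019. Of all 24015 genes, Rps27 was the 1 gene with at least 10 TPM in both replicates 2 and 3 and more than 5 times the highest of the other 11. These 2 libraries were picked for their level of Rps27, so it was bound to meet the rule. The count of other genes depends on the limits set.

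A near-identical copy, Rps27rt, carried most of the signal of the pair. Rps27rt had 1475, 1286 and 1320 TPM in SW033291 libraries, 1314, 1333 and 1291 TPM in aged vehicle libraries of batch 2, 1097, 966 and 1636 TPM in aged vehicle libraries of batch 1, and 1010.2, 1233, 1223 and 1217 TPM in young libraries. Over the 341 bases aligned, GENCODE M21 transcripts of Rps27 (345 bases) and Rps27rt (374 bases) had 0 mismatches, so reads of the 2 genes can be assigned to either and the value of each alone is uncertain. Rps27 made up 14.3% and 17.9% of the pair in replicates 2 and 3 of aged vehicle, batch 1, and at most 0.428% in the other 11 libraries. The sum of both was 1281, 1176 and 1639 TPM in aged and 1015, 1235, 1224 and 1218 TPM in young libraries of batch 1. On that sum the log2 difference was 0.21 with a limma adjusted p of 0.61. Rps27l, a paralog that p53 switches on, shared 79.0% of 214 aligned bases with Rps27, and had 357, 341 and 416 TPM in aged and 276, 340.2, 368 and 357 TPM in young libraries of batch 1.

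**Figure D5:**
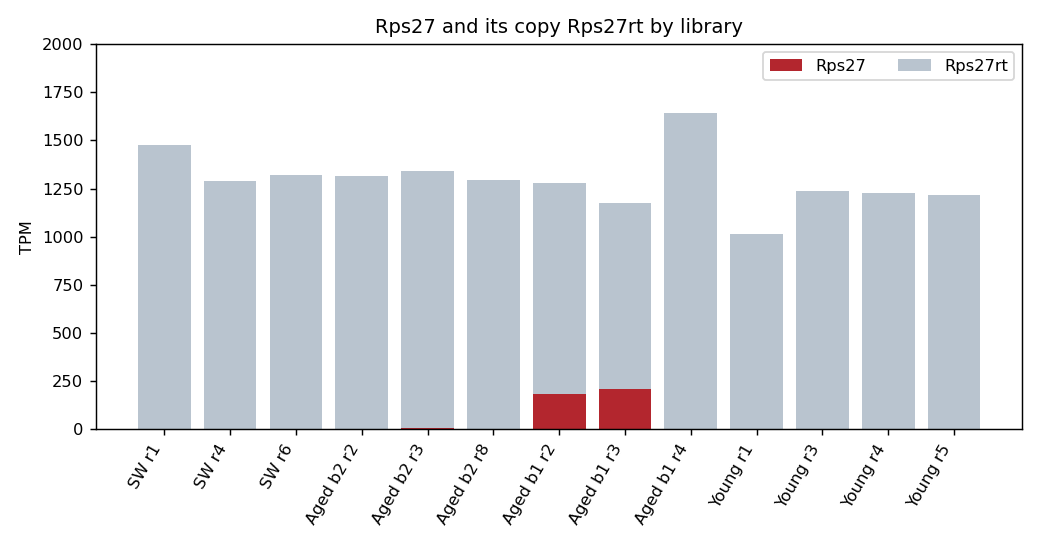
TPM of Rps27 (red, lower part of each bar) and of its near-identical copy Rps27rt (grey, stacked on it) in each library, on an axis from 0. Rps27 is visible in replicates 2 and 3 of aged vehicle, batch 1, at 184 and 211 TPM, and the sum of both lies between 1015 and 1639 TPM in all 13 libraries.

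Large subunit genes had medians near those of the small subunit. Of 51 large subunit genes, 48 had a positive age difference with a median of 0.26, and 1, the stalk protein gene Rplp0, rose with age, with 1117 ± 75.7 TPM in aged and 815 ± 49.8 TPM in young libraries (SD, n = 3 aged and 4 young; limma adjusted p = 0.042), against 0.37% of all genes higher. Without replicate 4, 0 of 51 passed, with a median of 0.16 and a limma adjusted p of 0.057 for Rplp0, and under median-of-ratios scaling 0 passed as well. Between batches 8 of the 51 were lower in batch 2, among them Rpl11, Rpl12, Rpl13a, Rpl18, Rpl28, Rpl35 and Rpl41, with a median of -0.27 over the 51, against 0.53% of all genes lower. Without replicate 4 of batch 1, 9 were lower, with a median of -0.17, where 231 of all 11876 genes were lower. Under SW033291 0 of 51 passed, with a median of 0.04. The ratio of the small to the large subunit sum of TPM stayed between 0.686 and 0.730 in the 13 libraries.

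Genes that build the small subunit are not part of it and had other medians. Of 40 assembly factors, 27 had a positive age difference with a median of 0.06, and 0 passed. Between batches 30 of the 40 were positive with a median of 0.20, against 64.2% of all genes positive and a median of 0.11. Of the 40, 1 was higher in batch 2, near the 1.72% of all genes that were. It was Bms1, a GTPase of early small subunit assembly, with 22.1 ± 2.00 TPM in batch 2 and 13.3 ± 2.19 TPM in batch 1 (SD, n = 3 each; limma adjusted p = 0.025). Without replicate 4 of batch 1, 6 of the 40 were higher in batch 2, where 1412 of all 11876 genes were. Under SW033291 11 of 40 were positive with a median of -0.10, and 0 passed.

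Of 22 genes of mTORC1 and LARP1 control, 0 passed with age (median 0.12) and 0 with SW033291 (median -0.23). Without replicate 4 the age median was 0.016. Between batches 3 were higher in batch 2 and 0 lower, against 1.72% of all genes higher. Under median-of-ratios scaling 0 of the 22 passed in either direction, and without replicate 4 of batch 1, 10 were higher and 2 lower. In that fit 1412 of all 11876 genes were higher and 231 lower. The kinase gene Mtor had 14.1 ± 2.42 TPM in batch 2 and 8.10 ± 1.19 TPM in batch 1, its partner Rptor 16.2 ± 2.8 TPM in batch 2 and 9.57 ± 1.91 TPM in batch 1, and Larp1 65.0 ± 8.05 TPM in batch 2 and 44.0 ± 2.70 TPM in batch 1 (SD, n = 3 each; limma adjusted p = 0.037, 0.037 and 0.046). Of 23 other messengers known for a terminal oligopyrimidine tract, 19 had a positive age difference with a median of 0.21 and 0 passed. Between batches 1 of the 23 was higher in batch 2, against 1.72% of all genes higher. It was Pabpc1, the poly(A) binding protein gene, at 61.1 ± 1.63 TPM in batch 2 and 41.6 ± 5.51 TPM in batch 1 (SD, n = 3 each; limma adjusted p = 0.031). Under median-of-ratios scaling Pabpc1 did not pass between batches, with a limma adjusted p of 0.058, but was lower with age, as it was without replicate 4. The median age difference of these 23 messengers was 0.12 without replicate 4. Of 23 initiation factors, 0 passed with age or SW033291, and 2, Eif3c and Eif4g1, were higher in batch 2, against 1.72% of all genes higher. Eif3c had 138 ± 6.24 TPM in batch 2 and 91.2 ± 19.8 TPM in batch 1. Eif4g1 had 339 ± 22.8 TPM in batch 2 and 216 ± 17.6 TPM in batch 1 (SD, n = 3 each; limma adjusted p = 0.038 and 0.0094). Under median-of-ratios scaling 1 of these, Eif4g1, passed, and without replicate 4 of batch 1, 8 of the 23 were higher, where 1412 of all 11876 genes were. Of 29 mitochondrial small subunit genes, which build another ribosome, 0 passed in any of these 3 comparisons, with medians of 0.07 for age, 0.03 for SW033291 and -0.04 between batches. Without replicate 4, 1 of the 29 was lower in batch 2, where 231 of all 11876 genes were, and 0 passed with age.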

How the data were processed

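RNA of whole quadriceps was analysed in 13 libraries, grouped by the labels. The authors deposited TPM per gene for 24015 genes, made with mm9 and with STAR, RSEM, DESeq and DESeq2 among the tools, per the submitters' processing notes. The sources used here give neither their versions nor their order. TPM keep no read depth, so depth and counting error are unknown. Per the file headers, the authors' deposited table of SW033291 against vehicle (24013 genes) and that of age (813 genes) hold a log2 fold change, a p-value, a test statistic (a score) and a mean of normalised counts (a signal).

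Gene names in the TPM table did not stand beside their own values. A spreadsheet had made dates of 27 names, which were restored. All names were then sorted in byte order and put back. The SW033291 log2 differences then had a Pearson correlation of 0.928 with the authors' deposited table over 6371 genes at a mean level of 50 or above, against -0.01 before and 0.0906 or 0.0873 after a shift by 1 place. Over 117 genes within 20 places of a small subunit gene it was 0.949. These correlations run across genes, which are not independent, and every value rests on this order.

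For the 11876 genes that reached 1 TPM in 3 libraries or more, log2(TPM + 1) was fitted in limma 3.58.1 (R 4.3.3), with 1 coefficient per group over all 13 libraries, moderated variances with a trend, and p-values adjusted by the Benjamini-Hochberg method over all genes at a threshold of 0.05. The scripts were tested on simulated data. Fold changes are on this scale and understate changes of low genes. The genes named were those past the threshold, the 5 highest and 5 lowest by level, the 5 most positive and 5 most negative per comparison, and a list by role, and of related lists those past the threshold. Some genes that this rule names are not reported here, and counts over all 33 include them. Members and lists were chosen with earlier results of these data known. Eda2r, Cdkn1a and Rplp0 were named because they passed. Promoters and gene types came from RefSeq (GRCm38.p6) and transcripts from GENCODE M21. Replicate numbers were taken as names only. Alternatives were other scalings, pseudocounts and filters, no trend, only the groups compared, a replicate block, each library left out, and, added after the data were seen, the sum of Rps27 and Rps27rt.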

Additional observations from a re-analysis of the deposited data

Results flagged for a closer look

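In the group of 4 young libraries, 3 of the small subunit genes reported had 1 library far from the other 3. Chance gives this in about 1 in 20 groups of values, so some cases are due among the 33 genes followed. The 3 genes stood apart in the same library, so they are not separate events, and no share over all genes is given. Rps21 had 631.7 TPM in young replicate 1, against 785 to 803 TPM in the others. Rps25 had 511 TPM in the same library, against 599.6 to 609 TPM in the others. Rps27 had 4.34 TPM in it, against 1.46 to 1.85 TPM in the others. These levels of Rps27 are low, and its value alone is uncertain because of Rps27rt.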

How the results depend on the processing

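The counts and medians of the 33 genes and the log2 differences of the members and related genes named for them were recomputed under each alternative. With age, 1 gene (Rps19) passed with a filter of 5 TPM in 3 libraries, 5 passed with the aged libraries taken from batch 2, and leaving out 1 library at a time gave 0 to 1, the 1 being Rps27 without aged replicate 4. The age median was 0.173 under quantile normalization, -0.0048 with batch 2, and 0.20 to 0.39 with 1 library left out. The age difference of Rps26 was -0.0848 under quantile normalization, -0.0054 without the 20 most abundant genes and -0.131 with batch 2, where Rps27l stood at -0.214, Fau at -0.247, Rps6 at -0.0021, Rpsa at -0.0309 and Rps3 at -0.0048.

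For SW033291, 0 members passed under every alternative run, and the median was 0.196 under median-of-ratios scaling and -0.0005 to 0.11 with 1 library left out. Under median-of-ratios scaling Rps3 stood at 0.0008, Rps16 at 0.0556, Rps9 at 0.0673 and Rps14 at 0.128 (0.0261 without the 20 most abundant genes), and on the sum with Rps27rt Rps27 stood at 0.0469. With 1 library left out Rps14 ranged from -0.128 to 0.106, Rps27 from -1.38 to 0.0384, Rps9 from -0.177 to 0.0011 and Rps4l from -0.179 to 0.562.

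Between batches, 8 members passed under median-of-ratios scaling, 3 under quantile normalization, 3 with no filter, 2 without the trend, 0 with only the groups compared and 1 to 8 with 1 library left out. The batch median was -0.414 under median-of-ratios scaling and -0.35 to -0.18 with 1 library left out. Under median-of-ratios scaling Rps24 stood at -0.136, Rps27a at -0.108 and Rps15a at -0.0568 (-0.0187 under quantile normalization). With 1 library left out Rps24 ranged from -0.148 to 0.213, Rps27a from -0.0807 to 0.227 and Rps15a from -0.0084 to 0.26. The cause of these shifts was not tested.

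Over all genes, 54 passed with age and 19 to 92 with 1 library left out, 11 with the block, 24 with only the groups compared, 27 with no filter and 31 without the trend. The higher and lower calls with age were 44 and 10, and 36 and 20 under median-of-ratios scaling, 41 and 30 under quantile normalization and 37 and 28 without the 20 most abundant genes. Between batches 267 passed, and 18 to 1643 with 1 library left out, 144 under median-of-ratios scaling (46 higher, 98 lower), 98 under quantile normalization (53 higher, 45 lower), 112 without the trend, 70 with the block and 1 with only the groups compared. For SW033291 4 genes passed at a pseudocount of 0.1 and 1 without the trend. The 21 related genes named as past the threshold with age or between batches kept their direction in all 363 values under alternatives. They fell short of the threshold in 147 of these values. The genes were chosen because they passed in the same libraries, and some alternatives leave the log2 difference unchanged. A kept direction was therefore largely fixed in advance.

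With the replicate number as a block, 0 members passed with age (median 0.35) and 1 between batches (median -0.30). Libraries that share a number correlated in their deviations at 0.17 and 0.04 for age and at -0.15 and -0.06 between batches, so the numbers were not taken as pairs. No paired analysis was possible for SW033291 because the groups share no replicate number. The TPM give no depth, so counting error is not known for any gene.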

Other observations

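Across the 31 members other than Rps27 and Rps4l, the batch difference in log2 TPM and the GC content of the coding transcripts (GENCODE M21) had a Spearman rho of -0.35 and the age difference and GC a rho of 0.40. Over 11004 of all genes tested the same rho were -0.14 and -0.21. Over these 11004 genes, the median length of the coding transcripts had a rho of 0.35 with the batch difference. With the age difference its rho was -0.02, and with the SW033291 difference -0.29. Across the 31 members the rho of length were 0.06 for batch, -0.01 for age and -0.03 for SW033291. The part of transcript length in the distance of the family from all genes was not tested. The points share the same libraries, and genes are not independent replicates.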
